A study of Saccharomyces cerevisiae with 4 samples.

Results

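Chromosomes XIV, XV and XVI of the budding yeast Saccharomyces cerevisiae are the last 3 of its 16 nuclear chromosomes, and their contacts in the nucleus are described here arm by arm. In a contact map of restriction fragments that runs from chromosome I to XVI, they were taken as the last 1022 of 4388 fragments, which is 23.3% of the map. The borders between them were set where the fewest contacts joined the 40 fragments before a position to the 40 after it. Chromosome XIV then held 296 fragments, XV 381 and XVI 345, at 2.65, 2.86 and 2.75 kb per fragment. The border between XIV and XV was crossed by 777 contacts, with 880 and 1235 at the positions beside it and a median of 2404 over the positions searched. The border between XV and XVI was shallower, with 1620 contacts, 1919 and 1664 beside it and a median of 2134. A division of the whole map into 16 blocks ended XIV at the same fragment (3662) and XV at 4044 in place of 4043. It ended XIII, beside the start of XIV, at 3363 in place of 3366.

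The maps come from Hi-C, which cuts fixed chromatin, joins DNA ends that lie close together and counts the joined pairs by sequencing. All cells were of the laboratory strain BY4742, grown in rich medium (YPD) at 25 °C, fixed in 3% formaldehyde and cut with HindIII. Control aliquots were fixed at 25 °C; the others received 1 volume of prewarmed fresh YPD, were kept at 37 °C for 15 min and were fixed at 37 °C, so that heat, fresh medium and the temperature of fixation cannot be told apart. Each temperature had 2 biological replicates, which the deposited files combine into 1 map, so no difference between the temperatures has a replicate check and no test was run. A map sums over many cells, and contacts in more cells cannot be told apart from more contacts per cell.

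Yeast chromosomes lie in the nucleus in the Rabl arrangement. All centromeres are held near the spindle pole body by short microtubules, the arms extend away from it, and the telomeres sit in groups at the nuclear envelope. Loci at a like distance from their centromeres therefore lie at a like depth in the nucleus, and the length of an arm limits how far its end can reach. Chromosome XIV has a long left and a very short right arm, XV a medium left and a very long right arm, and XVI arms that are closer in length.

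The labels of the 3 chromosomes were checked against these known shapes. The fragments that had most contacts with the centromeres of other chromosomes stood at 83.1%, 30.2% and 59.4% of the lengths of XIV, XV and XVI, where the R64 gene table places the centromeres at 80.3%, 29.9% and 58.7%. The placements lay 22.1, 2.78 and 7.07 kb from those of the table and did not change with the starting point of the search. Placed from the 25 °C map alone, the centromere of XV moved by 2 fragments and that of XVI by -1. Placed from the 37 °C map alone, that of XV moved by -1. The left and right arms then spanned 246 and 49 fragments on XIV, 115 and 265 on XV, and 205 and 139 on XVI.

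The 25 °C map held 5920062 contacts (median 2729 per fragment) and the 37 °C map 1937970 (median 718), so values at 37 °C are the less precise. Over all 16 chromosomes, 4282 fragments were kept after the lowest 2% by contacts in either map were left out, 1007 of them on XIV, XV and XVI. In 579 of the 4282 (13.5%) the share of contacts was raised more than 2-fold relative to the median ratio between the maps, and 135 of these lay on the 3 chromosomes. Values without these raised fragments are given beside the main results. Contacts between chromosomes are given as a ratio of observed to expected, where the expected count is the product of 2 fragment factors that match every fragment's total of contacts between chromosomes. A ratio of 1 is the average, and an excess in some pairs must lower others. Intervals are exact 95% counting intervals with the expected counts taken as fixed. They leave out the spread between cultures and any copies made by PCR.

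The centromere regions, 7 fragments to each side of the centromere fragment, had the highest ratios of the region classes measured on the 3 chromosomes. Each was placed where its ratio with the other centromere regions peaked in the summed maps. Its high value is therefore partly set by the placement. The centromere region of XIV had 16859 contacts with those of the other 15 chromosomes at 25 °C, a ratio of 5.48 (5.40 to 5.57), and 4135 at 37 °C, a ratio of 4.72 (4.58 to 4.87). That of XV had 15497 and 2985 contacts, with ratios of 5.23 (5.15 to 5.32) and 5.26 (5.07 to 5.45). That of XVI had 18195 and 4453, with ratios of 5.80 (5.72 to 5.89) and 5.28 (5.13 to 5.44). XVI was the third highest of 16 in both maps, whereas XIV went from rank 4 to 9 and XV from rank 9 to 4. Without raised fragments XIV ranked 4 and 5, XV 12 and 8, and XVI 3 and 2. There XIV and XV did not exchange ranks, although XIV still fell and XV still rose.

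The difference between the maps, as the log2 of the 37 °C ratio divided by the 25 °C ratio, was -0.22 (-0.27 to -0.17) for XIV, -0.14 (-0.18 to -0.09) for XVI and 0.01 (-0.05 to 0.06) for XV. The centromere regions of XIV and XVI held 3 and 2 raised fragments among 15 and that of XV held 0. Without raised fragments the log2 values were -0.12 (-0.18 to -0.06), -0.08 (-0.14 to -0.02) and -0.04 (-0.10 to 0.02), so the 3 chromosomes stood closer together. With at most 5 contacts counted per pair they were -0.07 for XIV, 0.11 for XV and 0.02 for XVI. That limit was passed by 37.1% of the centromere pairs at 25 °C and by 1.45% at 37 °C, so it acts mainly on the deeper map.

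Single pairs of centromeres ranged widely. At 25 °C the pairs of II with XVI (ratio 7.28, 6.93 to 7.63) and of II with XIV (6.67, 6.34 to 7.02) were the highest that included XIV, XV or XVI. The 3 lowest were those of chromosome VIII with XVI (4.04), XIV (4.10) and XV (4.20). The centromere of VIII was also the lowest of 16 with all others, at 3.98 at 25 °C and 3.53 at 37 °C. Among themselves the 3 chromosomes met at 5.44 (XIV with XV), 6.12 (XIV with XVI) and 5.59 (XV with XVI) at 25 °C, and at 4.75, 5.84 and 5.99 at 37 °C, with intervals of the difference that included 0 for all 3 pairs. Of the 42 pairs with XIV, XV or XVI, 16 had a log2 difference below -0.2 (38.1%), against 37.5% of all 120 pairs of centromeres. The lowest was that of IV with XVI, from 6.04 to 4.31 (log2 -0.49, -0.68 to -0.30). Only the pair of V with XV lay above 0.2, at 4.55 and 5.52 (log2 0.28, 0.02 to 0.53), against 2.5% of all pairs.

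Contact with other centromeres fell steeply along all 6 arms (plot of the ratio by distance). In the first 20 fragments from the centromere the ratio at 25 °C was 3.05 to 4.09, and it was 0.929 to 1.54 in the next 20. Beyond 120 fragments on the 3 longest arms it lay between 0.195 and 0.302. Taken in steps of 4 fragments, the ratio first fell below 1 at a distance of 78.8 kb on the right arm of XIV and 115.5 kb on the right arm of XVI, with the other 4 arms between, at 25 °C. The 6 arms had a median of 97.8 kb, and the 26 arms of the other chromosomes had a median of 86.3 kb (from 59.3 kb, with 2 short arms that stayed above 1 counted as the farthest). At the same number of fragments, the sides of XIV differed: at 21 to 40 fragments, near COG6 and BDP1, the left arm stood at 1.54 at 25 °C and 1.69 at 37 °C, while the right arm, near ESF2 and HOL1, stood at 0.929 and 0.992. A fragment averaged 3.15 kb on the right arm of XIV and 2.56 kb on the left. These averages divide arm lengths of the gene table by fragments counted from the placed centromere, which lay 22.1 kb from the table's. They and the distances in kb on XIV therefore depend on the placement. Whether the placement also made the sides differ was not tested.

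**Figure D1:**
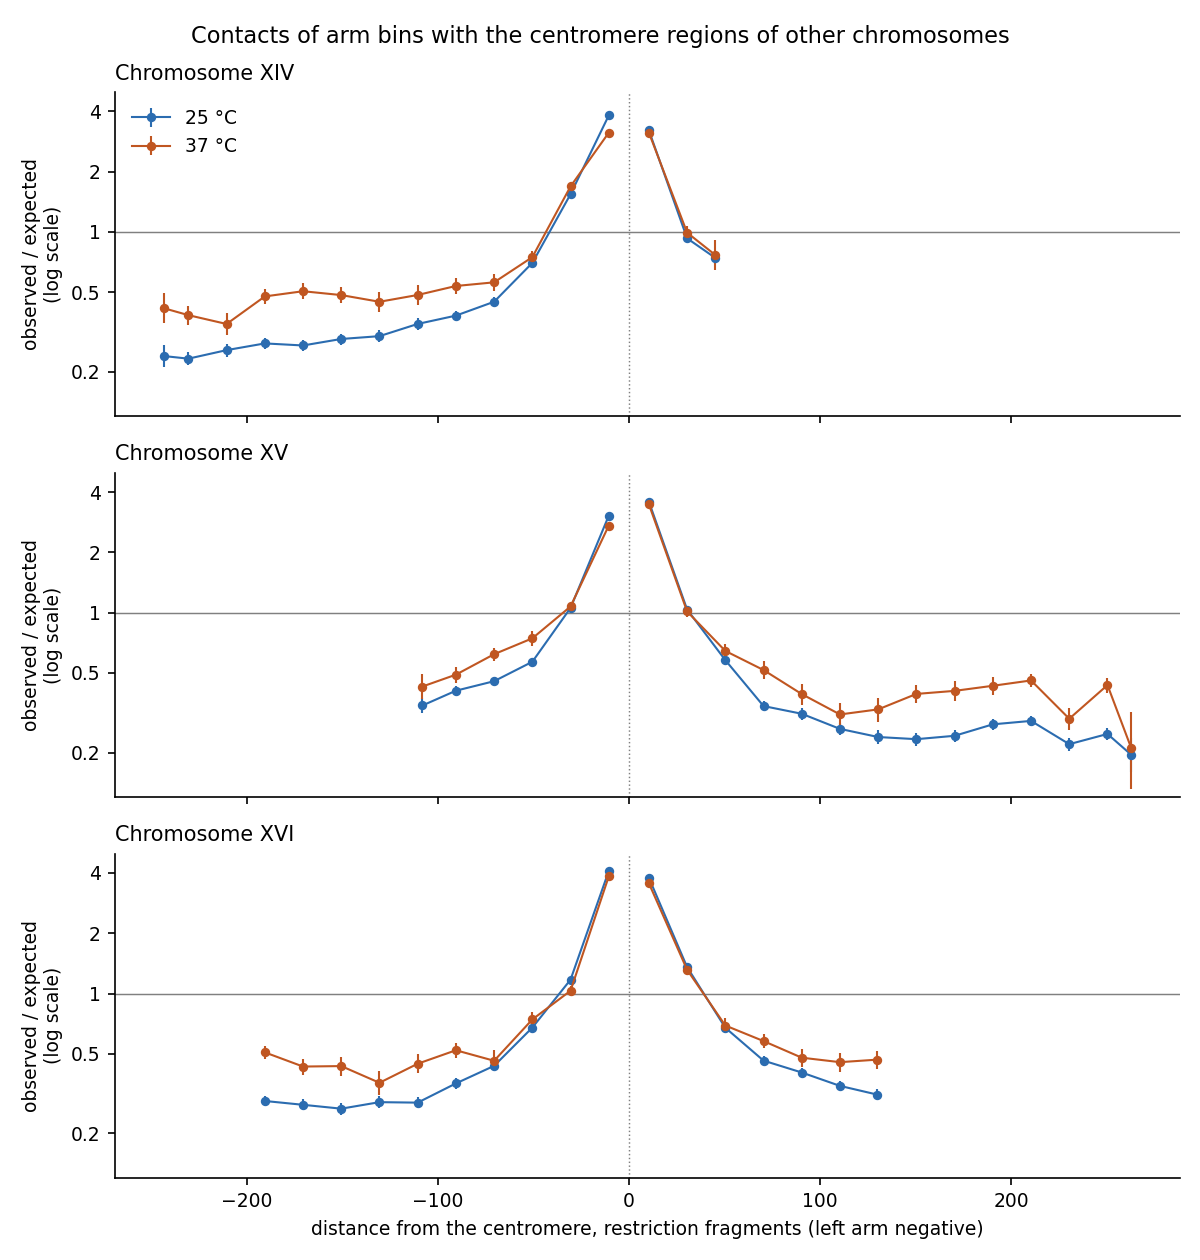
Ratio of observed to expected contacts (log scale) of bins of up to 20 fragments with the centromere regions of the other 15 chromosomes, by distance from the own centromere in fragments, for chromosomes XIV, XV and XVI. Blue points are the 25 °C map, orange points the 37 °C map, bars are 95% counting intervals; the curves start at 3.05 to 4.09 beside the centromere at 25 °C and the orange points lie above the blue ones on the distal arms.

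Taken over whole arms, outside the centromere region, the short right arm of XIV was the only arm of the 6 that met other centromeres more than average, at 1.21 in both maps. The right arm of XV was lowest, at 0.508 (0.501 to 0.515) at 25 °C and 0.572 (0.558 to 0.586) at 37 °C. In between lay the left arms of XIV (0.599 and 0.757), XVI (0.632 and 0.733) and XV (0.814 and 0.864) and the right arm of XVI (0.843 and 0.862). The order of the 6 at 25 °C followed their length except that the left arm of XV, at 115 fragments, stood below the right arm of XVI, at 139. Without raised fragments the log2 differences of XIV left, XVI left and XV right were 0.25, 0.06 and 0.06, against 0.34, 0.21 and 0.17 with them.

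The fragments far from their centromeres met other centromeres more at 37 °C than at 25 °C. The 268 kept fragments at 150 or more positions, which lie on the left arms of XIV and XVI and the right arm of XV, met other centromeres at 0.262 of the expected count at 25 °C (11287 contacts) and 0.429 at 37 °C (5623 contacts). The log2 difference was 0.71 (0.66 to 0.76), and for the 723 such fragments of the other 13 chromosomes it was 0.72 (0.69 to 0.75), from 0.231 to 0.381. By arm it was 0.73 on XIV left, 0.68 on XV right and 0.75 on XVI left, with intervals that overlapped. Without raised fragments the ratios on the 3 chromosomes were 0.221 and 0.317 and the difference 0.52 (0.45 to 0.58), against 0.53 for the other 13. Of 53 bins along the 6 arms, 34 (64.2%) had a log2 difference above 0.2, against 60.2% of all 226 bins, and 1 bin lay below -0.2, against 7.08%. That bin was the first 20 fragments of XIV left, near ARK1 and PUB1 (log2 -0.29).

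Fragments met those of other chromosomes that lie at a like distance from their own centromere more than others. Outside the centromere and end regions, pairs whose distances differed by up to 10 fragments had a ratio of 1.45 (1.44 to 1.45) at 25 °C and 1.36 (1.35 to 1.37) at 37 °C when 1 fragment lay on XIV, XV or XVI. The ratio fell with each class of greater difference, to 0.705 and 0.779 where the distances differed by more than 150 fragments. Pairs within the other 13 chromosomes had 1.44 and 1.34 in the nearest class and 0.747 and 0.799 in the farthest. The right arm of XIV had the widest range at 25 °C, from 1.65 (1.63 to 1.68) to 0.478 (0.465 to 0.491), and the left arms of XIV and XV had the lowest value in the nearest class, both 1.41.

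**Figure D2:**
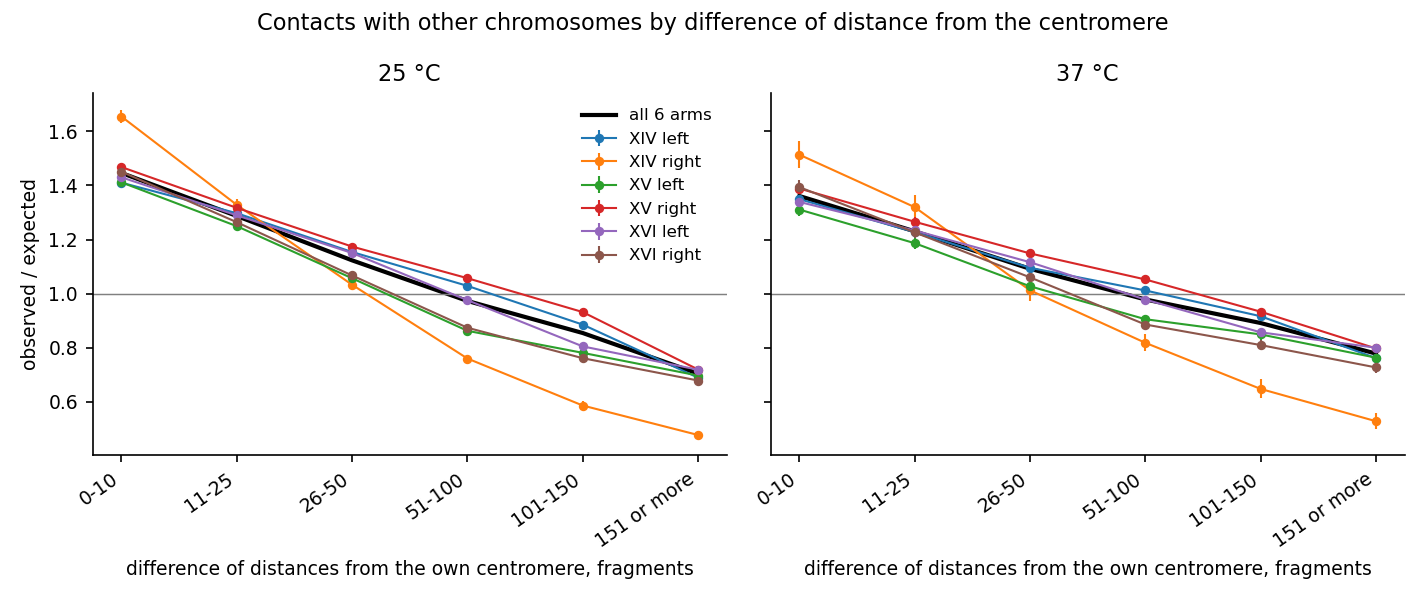
Ratio of observed to expected contacts with other chromosomes, by how much the distances of the paired fragments from their own centromeres differ (in fragments), at 25 °C (left) and 37 °C (right). Coloured lines are the 6 arms with 95% counting intervals and the black line is all 6 together; every line falls, from 1.45 to 0.705 for the black line at 25 °C, and the right arm of XIV falls furthest.

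Which arms met most followed their lengths. The right arm of XIV, with 49 fragments, met short arms most. It met the right arm of IX (25 fragments) at 2.19 times the expected count at 25 °C (735 contacts) and 2.25 at 37 °C (163 contacts). The left arm of III (30 fragments) followed at 2.03 and 1.96, the left arm of I (41 fragments) at 2.00 and 2.01, and the right arm of I (20 fragments) at 1.93 and 1.96. At 25 °C it met the long right arms of IV (388 fragments), XII (315 fragments) and VII (214 fragments) least. The ratios were 0.617, 0.644 and 0.738 at 25 °C and 0.686, 0.706 and 0.771 at 37 °C, where the right arm of XV (0.704) stood below those of XII and VII. Without raised fragments its values with the 4 short arms were 2.23, 2.01, 1.95 and 1.94 at 25 °C and 2.21, 1.86, 1.81 and 2.02 at 37 °C.

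The long arms showed the opposite order. The right arm of XV met the right arms of IV at 1.27 and 1.21 (25 °C and 37 °C), XII at 1.23 and 1.20 and VII at 1.16 and 1.13, and the short right arms of I at 0.572 and 0.633 and IX at 0.599 and 0.651. The left arms of XIV and XVI likewise had the right arm of IV as their first partner at 25 °C, at 1.17 and 1.12, and the right arms of I and IX as their last 2 partners. The 2 arms of middling length varied least: the left arm of XV ranged from 0.885 to 1.16 over its 30 partner arms at 25 °C, and the right arm of XVI from 0.933 to 1.11.

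**Figure D3:**
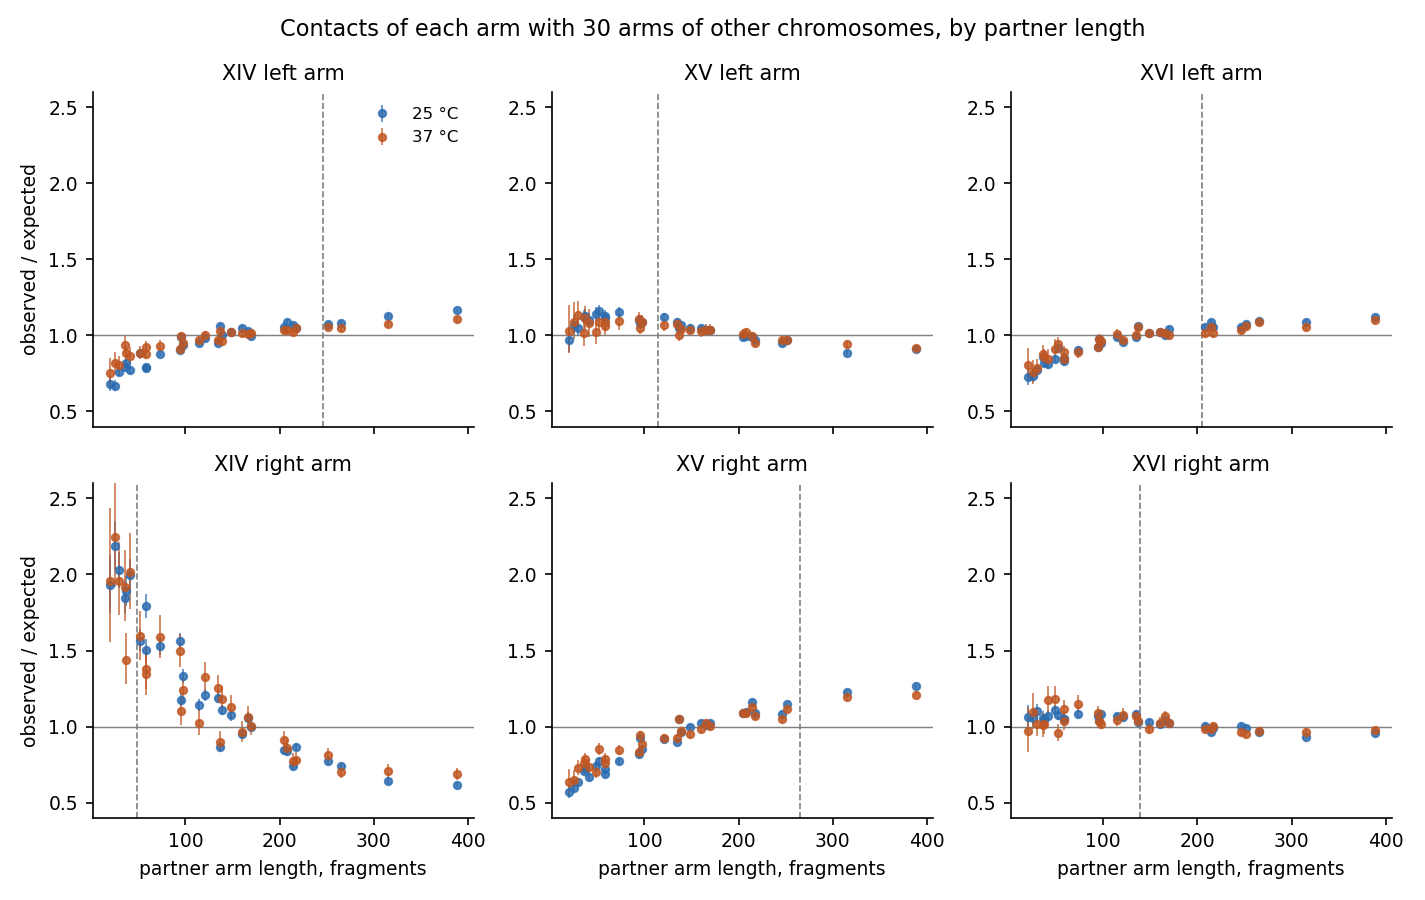
Ratio of observed to expected contacts of each arm of XIV, XV and XVI with the 30 arms of other chromosomes, against the length of the partner arm in fragments; blue is 25 °C, orange 37 °C, bars are 95% counting intervals and the dashed line marks the arm's own length. Points of the right arm of XIV fall from 2.19 for a short partner to 0.617 for the longest at 25 °C, and those of the right arm of XV rise from 0.572 to 1.27.

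As a description, the rank correlation of the ratio at 25 °C with partner length, over 30 partner arms that share a map and the arm itself, was -0.97 for XIV right and 0.97 for XV right. It was 0.96 for XIV left and 0.97 for XVI left, and -0.68 and -0.77 for XV left and XVI right. The ranking of partners in the 25 °C map recurred in the 37 °C map with rank correlations of 0.96 to 0.98 for XIV left, XIV right, XV right and XVI left, and of 0.71 and 0.60 for XV left and XVI right, whose partners differ little.

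Whole chromosomes showed little preference among the 3. XIV met XV at 0.986 (0.978 to 0.993) and XVI at 1.00 (0.994 to 1.01), and XV met XVI at 1.01 (1.00 to 1.01), at 25 °C. All 3 pairs together stood at 0.999 (212148 contacts) and 1.00 (62004 contacts), a log2 difference of 0.00 (-0.01 to 0.01). Outside centromere and end regions they stood at 1.03 and 1.02. This average joined arm pairs that differed: the short right arm of XIV met the long right arm of XV at 0.739 (0.718 to 0.761) and 0.704, and the left arm of XV at 1.14 and 1.02. The right arm of XIV met the right arm of XVI at 1.11 and 1.18, and the right arm of XV met the left arm of XVI at 1.09 in both maps. The fall from 1.14 to 1.02 between XIV right and XV left was the widest difference between the maps among these arm pairs (log2 -0.16, -0.29 to -0.04), and the pair of XIV right and XVI left moved the other way, from 0.848 to 0.914 (log2 0.11, 0.00 to 0.21).

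With the other 13 chromosomes, XV had the widest spread. It met the small chromosomes I, III and VI at 0.806 (0.790 to 0.822), 0.864 and 0.868 at 25 °C, the 3 lowest values of any pair that included XIV, XV or XVI, and the large chromosomes IV, XII and VII at 1.08, 1.05 and 1.05, the 3 highest. At 37 °C these were 0.828, 0.893, 0.885, 1.06, 1.06 and 1.05. Of the 42 chromosome pairs with XIV, XV or XVI, 16 (38.1%) had a ratio above 1 at 25 °C, against 47.5% of all 120 pairs, and the log2 difference lay between -0.03 and 0.06 in all 42. It was above 0 in 26 of them (61.9%), against 55.0% of all pairs.

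The ends of the chromosomes, taken as the outer 11 fragments of each arm, met ends of other chromosomes above the average rate, most at the left end of XV and least at the right end of XV. The ends carry the subtelomeres, which hold repeated gene families such as the Y' helicases (YRF1) and the seripauperins (PAU) and are bound by silencing proteins. At 25 °C the left end of XV had the highest ratio of the 6, 2.21 (2.12 to 2.31), with next XIV right at 2.13, XIV left at 2.05, XVI right at 1.97, XVI left at 1.83 and XV right at 1.70 (1.64 to 1.77). At 37 °C the values in the same order were 2.17, 2.11, 1.75, 1.79, 1.63 and 1.40. The left end of XV and the right end of XIV kept nearly the same ratio, while the other 4 had intervals of the difference below 0, from -0.29 (-0.39 to -0.18) for XV right to -0.15 (-0.26 to -0.04) for XVI right. All 6 together had 1.96 and 1.73 (log2 -0.18, -0.23 to -0.13), and the ends of all 16 chromosomes 2.07 and 1.87 (log2 -0.14, -0.17 to -0.11).

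Raised fragments bear on these ends. They numbered 2 of 11 kept fragments at XIV left, XV right and XVI right, 1 at XV left and XVI left and 0 at XIV right. Without them the log2 difference was 0.02 (-0.11 to 0.15) at XIV left, and of the 6 only XV right kept an interval below 0 (-0.21, -0.36 to -0.05). The plot of differences between the maps shows both sets of values for centromeres, ends and arms.

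**Figure D4:**
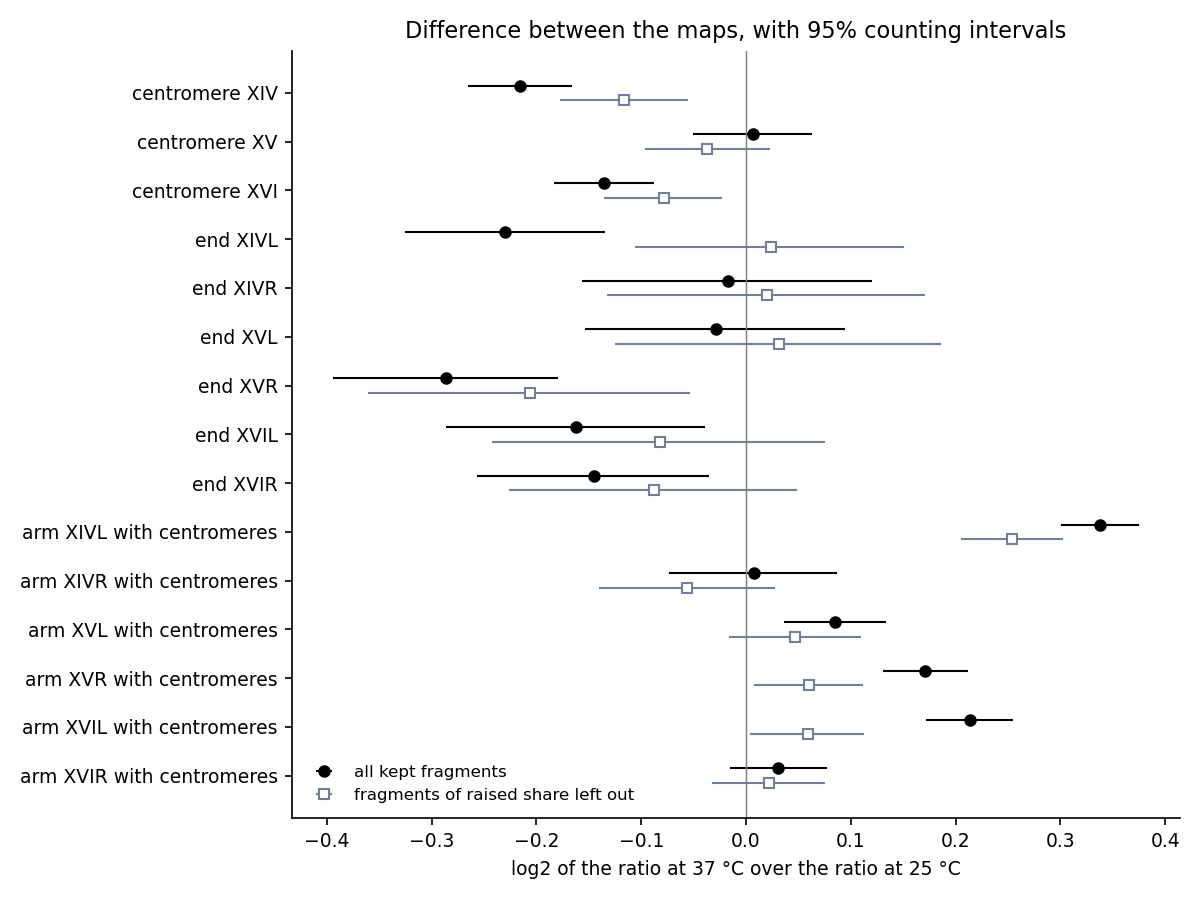
Log2 of the ratio at 37 °C over the ratio at 25 °C for the centromere regions of XIV, XV and XVI, the 6 ends, and the 6 arms with other centromeres; filled circles use all kept fragments, open squares leave out raised fragments, and bars are 95% counting intervals. The end of XIV left moves from -0.23 to 0.02 without raised fragments, while the left arm of XIV with centromeres stays above 0, at 0.34 and 0.25.

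At the right end of XIV, ends of arms of like length met most. At the right end of XV such ends stood above those of the least like arms, and at the left end of XIV this rested largely on 1 pair. The right end of XIV met the 9 ends whose arms differed from it by under 25 fragments at 3.21 (3.02 to 3.40) at 25 °C and 3.20 at 37 °C, and the 11 ends whose arms differed by 100 or more at 1.45 and 1.20. The left end of XIV had 3.73 and 2.90 with the 2 ends of most like arm length and 1.75 and 1.46 with the 19 least like. The 9 ends in between had 2.31 and 2.02. The 2 ends were those of XIII right and XV right. Without raised fragments the left end of XIV met XIII right at 8.03 (228 contacts) and 10.5 (66 contacts, 8.09 to 13.3). It met XV right at 2.40 and 1.96. For the right end of XV the values were 2.52 (2.25 to 2.82) and 2.02 with the 2 most like ends, XIII right and XIV left. With the 21 least like they were 1.49 and 1.19. The 7 ends in between had 2.13 (1.98 to 2.28) and 1.78, with intervals that overlapped those of the most like ends in both maps. For the left end of XV the most like ends had 2.26 and 2.49 against 2.18 and 1.67 for the least like, and at 25 °C their intervals overlapped. The right end of XVI had 2.01 against 1.90 at 25 °C, with intervals that overlapped, and 2.27 (1.96 to 2.62) against 1.57 (1.40 to 1.76) at 37 °C. Its left end had 2.31 against 1.58 at 25 °C, and at 37 °C 1.58, 1.93 and 1.43 from the most to the least like arms.

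Single pairs of ends rested on few contacts. Of 263 pairs with at least 10 expected contacts in each map, 120 included an end of XIV, XV or XVI, and 111 of these (92.5%) had a ratio above 1 at 25 °C, against 91.6% of all 263. The highest of all 263 joined the left end of XIV to the right end of XIII, arms of 246 and 251 fragments, at 6.12 (272 contacts, 5.41 to 6.89) at 25 °C and 5.36 (95 contacts, 4.34 to 6.56) at 37 °C. Without raised fragments it had 8.03 and 10.5, the latter on 6.31 expected contacts, below the limit of 10. The ends of this pair adjoin in the map, at the border that the division into blocks put at 3363 in place of 3366. Whether the place of that border affects the pair was not tested. The left end of III met the right end of XIV at 3.54 (174 contacts) and 3.55 (41 contacts), and the right end of V met the left end of XIV at 3.42 (266 contacts) and 2.13 (45 contacts). Among the 3 chromosomes, the highest at 25 °C was XIV left with XVI left, at 2.56 (2.19 to 2.97) and 1.56 (1.11 to 2.12), and the lowest XIV right with XV right, at 1.38 (75 contacts) and 0.661 (10 contacts), or 1.48 and 0.354 (3 contacts at 37 °C) without raised fragments. The left end of XV met the right end of XVI at 2.22 (97 contacts) and 3.27 (46 contacts) (log2 0.56, 0.02 to 1.08). Of the 120 pairs, 61 (50.8%) had a log2 difference below -0.2 and 26 (21.7%) above 0.2, against 47.9% and 22.4% of all 263. The lowest was the right end of I with the right end of XV, with 17 contacts at 25 °C and 1 at 37 °C.

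How the contacts with other chromosomes were spread along an arm also differed between the maps. Each bin of up to 20 fragments has a share of all contacts between chromosomes, and the log2 of its share at 37 °C over 25 °C ranged from -0.65 to 0.59 over the 53 bins, with 18 (34.0%) below -0.2 and 10 (18.9%) above 0.2, against 24.3% and 19.5% of all 226 bins. The highest bin lay at 201 to 220 fragments on the right arm of XV, near SNC2, a vesicle fusion protein, and PDR10, a drug transporter, with 0.509% of contacts at 25 °C and 0.768% at 37 °C (log2 0.59, or 0.34 without its 6 raised fragments). The lowest was the last bin of XIV right, near the transporter genes PDR18 and HXT17, with 0.152% and 0.0968% (log2 -0.65, or -0.37 without raised fragments anywhere). The other bins of XIV right both stood at -0.33, or at -0.20 and -0.05 without raised fragments, and that arm held 1 raised fragment among 48. Shares sum to a whole, so raised fragments elsewhere lower them. Raised fragments were picked by nearly the same quantity, so leaving out a bin's own tends to lower its value by construction. Without raised fragments 5 of the 53 bins (9.43%) lay below -0.2, against 7.96% of all 226.

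On the other arms the extremes were as follows. XIV left had its highest bin beside the centromere near ARK1, a kinase that acts on actin, and PUB1, an RNA-binding protein, at 0.39, and its lowest at 101 to 120 fragments near GIM3, a prefoldin subunit, and INN1, a cytokinesis protein, at -0.33. XV left had 0.32 near ITR2, an inositol transporter, and -0.52 near REX4 and AVO1 (a subunit of a TOR complex), with 4 and 0 raised fragments. The lowest bin of XV right was its tip, near PAU21 and YRF1-8, at -0.51. On XVI left the highest bin, near ACM1, an inhibitor of the anaphase-promoting complex, and DIM1, an rRNA methylase, fell from 0.35 to -0.13 when its 6 raised fragments were left out. Its lowest, near TGS1 and PRM4, was -0.30 (-0.09 without raised fragments). XVI right varied least, from -0.22 near ARP7, a chromatin remodelling subunit, and GLN1, glutamine synthetase (0.03 without raised fragments), to 0.11 near ALE2 and RGC1.

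Hsf1 is the transcription factor that switches on chaperone genes in heat, and its targets on the 3 chromosomes were followed as neighbourhoods of 11 fragments. Positions are interpolated, so each value describes a region and not the gene itself. SIS1, a J-domain chaperone (XIV, 618507 to 619565), lies beside the centromere, and its neighbourhood met other centromeres at 5.28 and 4.62. HSP10, the mitochondrial co-chaperonin (XV, 370524 to 370844), had 2.57 and 2.52, and STI1, a co-chaperone (XV, 381053 to 382822), had 1.92 and 1.80. The J-domain chaperone genes YDJ1 (XIV, 505868 to 507097) and APJ1 (XIV, 481391 to 482977) had 0.732 and 0.770, and 0.573 and 0.673.

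The 5 neighbourhoods farthest from the centromere all had higher ratios with other centromeres at 37 °C, like the arm bins around them. They held 3 raised fragments (HCH1), 2 (HSP82 and CUR1), 1 (SSE1) and 0 (MBF1). HCH1, a co-chaperone (XIV, 108467 to 108928), rested on 408 and 228 contacts and went from 0.253 to 0.439 (log2 0.80, 0.56 to 1.03). HSP82, a chaperone of signalling proteins (XVI, 96496 to 98625), went from 0.280 to 0.393 (log2 0.49, 0.27 to 0.71), and MBF1, a transcriptional coactivator (XV, 877230 to 877685), from 0.240 to 0.336 (log2 0.49, 0.17 to 0.79). CUR1, a factor in sorting misfolded proteins (XVI, 843262 to 844020), stood at 0.387 and 0.511, and SSE1, a nucleotide exchange factor of chaperones (XVI, 350194 to 352275), at 0.397 and 0.482. Pairs of these neighbourhoods on different chromosomes among the 3 numbered 33. Their ratios at 25 °C ran from 0.276 for SIS1 with SSE1 (25 contacts) to 2.39 for SIS1 with HSP10 (320 contacts, 2.48 at 37 °C), which lie 4 and 15 fragments from their centromeres. At 37 °C the 33 pairs held between 2 and 73 contacts, so only large changes in single pairs were detectable at this depth. Named after its values were seen, YDJ1 with MBF1 had 60 contacts (0.861) at 25 °C and 2 (0.133) at 37 °C, with a log2 difference of -2.70 (-5.78 to -0.78). HSP82 with HSP10 had 31 contacts (0.296) at 25 °C and 8 (0.316) at 37 °C, with an interval of the log2 difference from -1.24 to 1.24.

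Contacts inside each chromosome are limited by blank pairs. At 25 °C, 91.1%, 93.0% and 88.1% of the pairs at 10 to 19 fragments held no contact on XIV, XV and XVI, where the rate between chromosomes alone would leave 55.9%, 54.9% and 52.9% blank. At 37 °C, in the shallower map, 78.5%, 78.2% and 77.7% were blank, below the 84.8%, 84.1% and 84.6% of that rate. The filled pairs of this class held 13.2, 10.5 and 12.1 contacts on average at 25 °C and 3.81, 3.80 and 3.74 at 37 °C. Only at 160 fragments or more did the blank share at 25 °C, at 55.4%, 58.9% and 53.5%, come near the 55.8%, 55.0% and 54.0% of that rate. How the blank pairs arose is not given in the sources used here, and the levels at short separations are not read as a difference between the maps. The share of a chromosome's contacts that lay inside it, 5.91%, 6.33% and 6.84% at 25 °C and 9.59%, 11.02% and 10.7% at 37 °C for XIV, XV and XVI, is given with that limit.

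**Figure D5:**
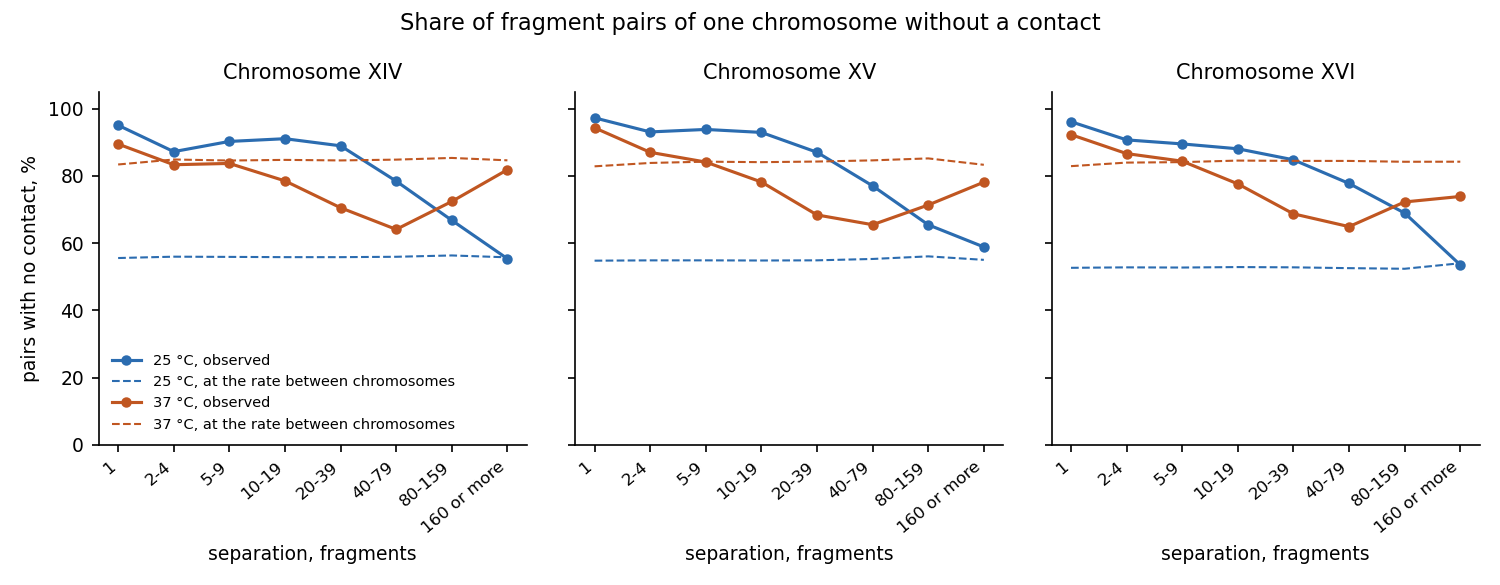
Share of fragment pairs inside chromosomes XIV, XV and XVI that hold no contact, by separation in fragments; solid lines are the maps at 25 °C (blue) and 37 °C (orange), dashed lines the share that the rate between chromosomes would leave blank. At 25 °C the solid line lies between 87.2% and 97.3% up to 19 fragments and comes near the dashed line at 160 fragments or more.

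The left and right arms of a chromosome met each other more often than pairs inside an arm at the same separation, except on XIV at 37 °C. Over XIV, XV and XVI the ratio was 1.39 (1.38 to 1.41) at 25 °C and 1.14 (1.13 to 1.16) at 37 °C, a log2 difference of -0.29 (-0.31 to -0.27), with 62.7% and 73.6% of these pairs blank. The reference pairs inside arms start at a separation of 2 and so include the short separations with many blank pairs. At separations of 150 or more the ratio was 1.50 and 1.27 (log2 -0.24). Divided by fragment factors, the ratio over all separations was 1.36 and 1.24, and the log2 difference shrank to -0.13 (-0.16 to -0.11). By chromosome it was 1.41 and 0.897 on XIV, 1.34 and 1.19 on XV, and 1.43 and 1.22 on XVI. Division by fragment factors turned the value of XIV at 37 °C to 1.09 (1.05 to 1.12) and moved the log2 difference from -0.66 to -0.42 on XIV, from -0.18 to -0.06 on XV and from -0.23 to -0.09 on XVI. For the other 13 chromosomes, matched on their own arms, the ratio was 1.30 and 1.21.

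On XV and XVI, widely separated pairs met in excess where they were balanced about the centromere. At separations of 80 fragments or more, pairs whose distances from the centromere differed by at most 20% of the separation had a ratio of 2.32 (2.28 to 2.36) at 25 °C and 1.55 (1.51 to 1.60) at 37 °C. Pairs whose distances differed by more than 60% of it had 0.584 (0.567 to 0.600) and 0.774 (0.747 to 0.802). Pairs in between and pairs at smaller separations were not divided by balance, so their part in the excess is not given. Blank pairs made up 42.1% of the balanced and 78.7% of the unbalanced pairs at 25 °C, and 67.6% and 81.9% at 37 °C. Both chromosomes showed the contrast, XVI with 2.56 and 0.513 at 25 °C and 1.71 and 0.699 at 37 °C, and XV with 2.04 and 0.652, then 1.36 and 0.848. Divided by fragment factors, the balanced pairs had 2.63 and 2.09 and the unbalanced ones 0.544 and 0.792. On XIV, whose short right arm leaves 347 balanced pairs, they had 2.06 (1.89 to 2.24) at 25 °C and 1.12 (0.956 to 1.31) at 37 °C, and the unbalanced pairs had 1.17 and 0.758.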

How the data were processed

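Hi-C contact counts were deposited by the authors as 1 matrix of whole numbers per temperature, replicates combined, without fragment names or coordinates. Reads were aligned with Bowtie 1.1.0 to R64, per the submitters' processing notes; the filters and later steps are items not given in the sources used here. Columns of samples left unused numbered 0.

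Fragments of the maps were matched in order (4382 matched; the largest row shift was 6), chromosomes were cut from the 25 °C map, and centromeres were placed by contacts in the summed maps. Fragment factors came from iterative proportional fitting over pairs between chromosomes. Genes were placed by interpolation on the RefSeq table of R64 around each centromere. Named genes are the nearest to the middle of the extreme bins, and Hsf1 targets. Ratios carry exact Poisson intervals and log2 differences exact Clopper-Pearson intervals (95%). Contacts between arms were set against pairs inside an arm, pooled over the 3 chromosomes, from a separation of 2, smoothed over 11 separations. Ratios of centromere regions, far fragments and equal distances were checked on counts simulated from the fitted factors, without contacts inside chromosomes. The check was that counting noise left them near the values of the same maps without noise. The other ratios and the shares were not simulated. The chromosomes, regions and gene lists were chosen with earlier results of these data known. Python 3.11.15, numpy 2.4.6, scipy 1.17.1, pandas 2.3.3 and matplotlib 3.10.9 were used. No sequence is printed, since no genome was used here.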

Additional observations from a re-analysis of the deposited data

How the results depend on the processing

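No paired analysis was possible because the replicates of each temperature are combined in 1 map, and for the same reason no replicate could be left out. Of 82 recomputed values, 45 stayed within the counting interval of the reported value, 36 moved outside it, and 1 reversed; the causes were not tested except where stated. The reversed value was the log2 difference of centromere regions with a limit of 5 contacts per pair, at 0.0098 against -0.13; the limit acts mainly on the deeper map. With that limit, ratios at 25 °C were 4.94 for centromeres, 1.93 for ends, 0.290 for far fragments, 1.43 for equal distances and 1.37 for arms of a chromosome, and log2 differences 0.57 for far fragments, -0.075 for equal distances and -0.26 between arms. Without raised fragments, ratios at 25 °C were 5.39, 2.07, 0.221, 1.46 and 1.44 in that order, and log2 differences -0.081 for centromeres, -0.051 for ends, 0.52 for far fragments, -0.053 for equal distances and -0.23 between arms. Leaving out the lowest 5% of fragments gave -0.32 between arms. The product of totals without iteration gave 1.01 for contacts among the 3 chromosomes and 1.45 for equal distances. Factors fitted without centromere and end regions gave 1.43 for equal distances. Among the 3 chromosomes, leaving out 10 fragments beside each border gave 1.01, and leaving out centromere and end regions gave 1.03 with a log2 difference of -0.015. Centromere regions of 4 fragments to each side gave 6.75 and -0.21, and placement from the other map gave 5.44. Ends of 5 fragments gave 2.83 and ends of 22 fragments 1.46. Fragments at 200 or more positions gave 0.246, and distances that differ by up to 5 fragments gave 1.48. Between arms, division by fragment factors gave 1.36 and -0.13, and separations of 150 or more, chosen after seeing the data, gave 1.50 and -0.24. With no filter on fragments every value stayed inside the interval.

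The main limits are that 1 map per temperature leaves the spread between cultures unknown, that chromosome borders, centromeres and genes are inferred from the maps, and that pairs of ends or gene neighbourhoods at 37 °C rest on few contacts.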
